A study of Mus musculus with 18 samples.

Results

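The mitochondrially encoded transcripts are the RNAs copied from the small circular genome inside the mitochondrion, and they were taken here as every gene whose symbol begins with mt-. They number 37 of the 46983 genes in the expression tables and comprise 2 rRNA genes, 13 mRNA genes and 22 tRNA genes. Bulk RNA had been sequenced from dendritic cells, CD8+ T cells and CD4+ T helper cells sorted out of MC38 tumours, which grow from a colon carcinoma line placed under the skin of C57BL/6 mice. In each sort, 3 libraries came from mice given anti-PD-1, an antibody against an inhibitory receptor of T cells, and 3 from mice given anti-PD-1 plus D18, an agent known here by its code name. All mice were 6-week-old females of 1 strain as far as the labels say, and no group went without anti-PD-1. Treatment ran for 2 weeks from a mean tumour volume of 100 mm3, with 200 µg per mouse of anti-PD-1, given 2 times per week, and, in the D18 groups, 25 µg of D18 per mouse 1 time per week. The labels do not say whether a library came from 1 mouse or from pooled mice, so p-values measure the spread between libraries, which may be technical. The question put to the members was how much of each library they filled, in what proportions, and whether either changed with D18.

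The mitochondrial genome is copied into RNA from both strands as long precursors. The tRNAs stand between most of the other genes and are cut out, which frees the rRNAs and mRNAs. Both rRNAs serve the mitochondrial ribosome, and each mRNA encodes a subunit of the respiratory chain or of ATP synthase. All other proteins of the mitochondrion come from nuclear genes. Old insertions of mitochondrial DNA in the chromosomes leave nuclear copies of these genes, which are annotated as pseudogenes.

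The libraries held 11170 to 266392 reads over all genes, so a gene without a read had an upper limit of 3 reads at 95% confidence, for counting error only. The marker genes of the sorts varied within groups. Cd3e, a part of the T cell receptor, had 0 and 1 reads in the CD4 anti-PD-1 replicates 1 and 2 and 10 to 45 in the other 4 CD4 libraries. A list of T cell markers had 0 and 1 reads in dendritic cell anti-PD-1 replicates 1 and 2, but 478 and 846 in the libraries numbered 3 of that sort. Flt3, which marks conventional dendritic cells, had 0 reads in all 3 dendritic cell anti-PD-1 libraries and 13, 1 and 3 in those with D18, while the class II gene H2-Aa had 11 to 689. Macrophage markers had reads in all 18 libraries. The 6 libraries numbered 1 and 2 of the anti-PD-1 groups stood apart in all 3 sorts by the members described next, and beside the changes of the genes described most fully stand the values against anti-PD-1 replicate 3 alone.

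Reads of mt-Atp6, mt-Co2 and mt-Co3, which encode a subunit of ATP synthase and 2 of cytochrome c oxidase, were found in 12 libraries and in none of the 6 anti-PD-1 libraries numbered 1 and 2. The less abundant mt-Atp8 and mt-Nd4l had no read in those 6 libraries either. mt-Atp8 had 88 reads in 9 of the other 12, and mt-Nd4l had 3 reads in all. mt-Atp6, mt-Co2 and mt-Co3 are repeated in the nucleus letter for letter, save for the last 1 to 3 bases. Next to one another on the minus strand of chromosome 1, from chr1:24611535-24616197 of mm10, lie 7 pseudogenes that copy mt-Nd4, mt-Nd4l, mt-Nd3, mt-Co3, mt-Atp6, mt-Co2 and the end of mt-Co1, in the order that the genes have in the mitochondrial genome when that strand is read. mt-Co2 equals Gm28661 over 681 bases, mt-Atp6 equals Gm10925 over 678, mt-Co3 equals Gm28437 over 783 and mt-Nd4l equals Gm10222 over 294, each without a mismatch. A read from such a stretch fits both places equally well. The counter's setting for reads with more than 1 place was not given in the sources used here. The first 120 bases of mt-Co2 and of its copy are shown because they carry the point, with the start codon in capitals (chrM:7013-7132, plus strand, and chr1:24615446-24615565, minus strand, mm10, from GENCODE M21 transcripts).
mt-Co2: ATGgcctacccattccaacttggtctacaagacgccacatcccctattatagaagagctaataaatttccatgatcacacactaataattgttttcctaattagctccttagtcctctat
Gm28661: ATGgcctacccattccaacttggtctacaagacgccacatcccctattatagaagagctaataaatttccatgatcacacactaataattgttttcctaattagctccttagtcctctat

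The copies of mt-Nd3 and mt-Nd4 show how far this identity reaches. mt-Nd3, a subunit of complex I, differs from Gm28438 at 1 of the 345 aligned bases, T3C, counted from 1 at the first base of mt-Nd3. That base is in capitals in the first 60 bases of both (chrM:9459-9518, plus strand, and chr1:24613060-24613119, minus strand, mm10).
mt-Nd3: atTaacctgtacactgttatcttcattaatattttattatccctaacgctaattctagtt
Gm28438: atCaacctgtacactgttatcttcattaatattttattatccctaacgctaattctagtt
In mt-Nd4, another subunit of complex I, the first 876 bases equal Gm28439 and the rest has no counterpart there. Bases 817 to 936 span that border, with the bases past the end of the copy in capitals (chrM:10983-11102, plus strand, mm10).
mt-Nd4: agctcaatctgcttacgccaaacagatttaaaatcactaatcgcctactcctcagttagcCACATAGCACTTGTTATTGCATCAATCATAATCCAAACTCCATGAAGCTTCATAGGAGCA

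mt-Cytb, which encodes cytochrome b of complex III, is the contrast. Its best nuclear match, Gm11410 on chromosome 4, has 92.9% of 1142 aligned bases in common, and the longest stretch without a difference is 47 bases. In the stretch shown, bases 2 to 121 of both genes, 7 of 120 bases differ and stand in capitals (chrM:14146-14265, plus strand, and chr4:80003990-80004109, plus strand, mm10).
mt-Cytb: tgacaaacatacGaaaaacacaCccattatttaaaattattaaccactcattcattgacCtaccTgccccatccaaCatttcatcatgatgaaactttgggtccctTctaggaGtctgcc
Gm11410: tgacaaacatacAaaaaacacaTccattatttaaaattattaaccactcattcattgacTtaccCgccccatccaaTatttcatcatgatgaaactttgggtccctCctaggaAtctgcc

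Over every stretch of 50 bases in a gene, the share found unchanged in a nuclear transcript was 100% for mt-Co2, 99.9% for mt-Co3, 99.5% for mt-Atp6, 98.8% for mt-Nd4l and 98.0% for mt-Nd3. It was 62.2% for mt-Nd4 and 51.1% for mt-Co1, the catalytic subunit of cytochrome c oxidase. It was 8.19% for mt-Nd2, 7.61% for mt-Nd5 and 1.04% for mt-Rnr2, and 0% for mt-Rnr1, mt-Nd1, mt-Atp8, mt-Nd6 and mt-Cytb. Summed over 18 libraries, the 5 genes mt-Co2, mt-Co3, mt-Atp6, mt-Nd4l and mt-Nd3 had 10.1 to 858 reads per kilobase. mt-Nd4 and mt-Co1 had 12992 and 36844, and the other genes, mt-Atp8 apart, had 7302 to 193720. mt-Atp8, a small subunit of ATP synthase, was low at 431 with no 50-base stretch found in another transcript, and 43 of its 204 bases overlap mt-Atp6. The gap between Gm10925 and Gm28661 is 233 bases, against 230 between mt-Co2 and mt-Atp6, where mt-Atp8 begins, and the sequence of that gap was not examined. These shares describe 15 genes that lie on 1 molecule and share their libraries, and no test was made of them.

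**Figure D1:**
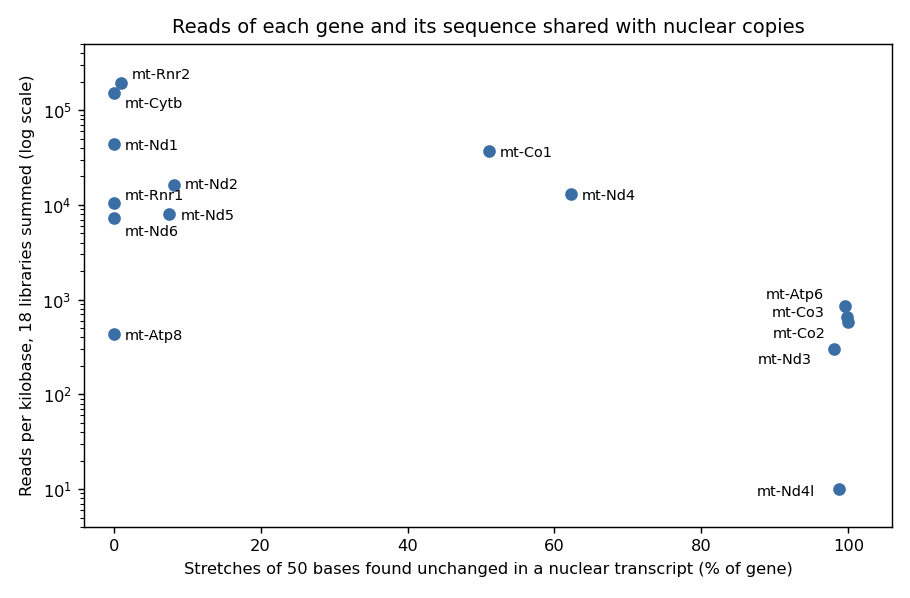
Reads per kilobase summed over 18 libraries (y axis, log scale) against the percentage of each gene's 50-base stretches that occur unchanged in a nuclear transcript (x axis), 1 point per rRNA or mRNA gene. The 5 genes at the right edge lie at 10.1 to 858 reads per kilobase, and mt-Atp8 is low at the left edge.

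The copies Gm28661, Gm28437 and Gm10925 had 2, 3 and 9 reads over the 6 libraries without reads of the genes they copy, and 399, 565 and 726 over the other 12. In each sort mt-Co2 had 0 and 0 reads in the anti-PD-1 libraries numbered 1 and 2 and 40, 33 and 43 in replicate 3 of CD8, CD4 and dendritic cells. With D18 it had 13, 19 and 21 reads in CD8 cells, 47, 1 and 32 in CD4 cells and 101, 9 and 41 in dendritic cells. Its total of 400 reads stands beside 399 of Gm28661, its copy. Of the reads of that pair in the 12 libraries mt-Co2 took 50.1% (exact 95% binomial interval 46.5 to 53.6). These intervals cover counting error only, and the split differed between libraries, as with 13 reads of mt-Co2 against 30 of Gm28661 in CD8 D18 replicate 1. mt-Co3 took 47.5% (44.5 to 50.5) of the reads it shared with its copy, and mt-Atp6 took 44.6% (41.9 to 47.3) of its pair's. mt-Nd3, with its single difference, took 26.5%. Against Gm28439 and Gm29216, which copy only a part of each gene, the share was 98.3% for mt-Nd4 and 97.1% for mt-Co1. mt-Co1 also aligned over all of its 1545 bases with another pseudogene, Gm13340, at 97.6% identity. The reads of Gm13340 are not in that share. The pairs without a mismatch thus did not all split alike. mt-Co2, mt-Co3 and mt-Atp6, copied up to their last bases, held 44.6% to 50.1% of the pooled reads. mt-Nd4l, also copied up to its last bases, had 3 reads against 41 of Gm10222, and mt-Nd4, copied in part, held 98.3%.

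The 7 copies together had 0 to 46 reads among these 6 libraries and 22 to 672 among the other 12. Gm28438, the copy of mt-Nd3, had 37 and 10 reads in CD4 anti-PD-1 replicates 1 and 2, where mt-Nd3 had none. Gm28439, the copy of a part of mt-Nd4, had 1 read in the 6 libraries, where mt-Nd4 had 10556, and 130 in the 12, where mt-Nd4 had 7347. The remaining pseudogenes of the genome moved with the same split. Of nuclear reads they took 0.209% to 0.507% in the 6 libraries and 0.639% to 3.03% in the 12, without overlap. Since no D18 library is among the 6, this split and the treatment cannot be told apart in replicates 1 and 2, and anti-PD-1 replicate 3 is the only anti-PD-1 library of each sort on the same side as the D18 libraries.

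As RPKM, the reads of a gene divided by its length in kilobases and by the reads of the library, 1 rRNA and 1 mRNA led. mt-Rnr2 (ENSMUSG00000064339, chrM:1094-2675), the large-subunit rRNA of the mitochondrial ribosome, was first in 15 libraries, and mt-Cytb (ENSMUSG00000064370, chrM:14145-15288) was first in the other 3. The lowest, median and highest RPKM were 10819, 74123 and 153172 for mt-Rnr2 and 1690.1, 21439 and 254237 for mt-Cytb. By median RPKM there followed mt-Nd1 (ENSMUSG00000064341, chrM:2751-3707) at 9706, mt-Co1 (ENSMUSG00000064351, chrM:5328-6872) at 8288, mt-Nd2 (ENSMUSG00000064345, chrM:3914-4951) at 5911 and mt-Nd4 (ENSMUSG00000064363, chrM:10167-11544) at 3942. mt-Rnr1 (ENSMUSG00000064337, chrM:70-1024), the small-subunit rRNA, had a median of 3461, below 5 of the mRNAs. mt-Nd6 (ENSMUSG00000064368, chrM:13552-14070), the 1 mRNA on the minus strand, had 2225, and mt-Nd5 (ENSMUSG00000064367, chrM:11742-13565) had 1841. The 14 bases that mt-Nd5 and mt-Nd6 share lie on opposite strands. Smart-Seq2 libraries keep no strand, so a read over mt-Nd6 may come from RNA of either strand. Neighbours in this order lay within each other's range over the libraries. The reads behind these levels ran from 2 for mt-Nd6 in CD4 D18 replicate 2 to 64685 for mt-Cytb in dendritic cell anti-PD-1 replicate 2.

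The genes copied whole in the nucleus came last together with mt-Atp8, of which only a short stretch was found unchanged, 43 bases in Gm10925. Median RPKM were 341 for mt-Co2 (ENSMUSG00000064354, chrM:7013-7696), 316 for mt-Atp6 (ENSMUSG00000064357, chrM:7927-8607), 280.1 for mt-Co3 (ENSMUSG00000064358, chrM:8607-9390) and 115 for mt-Nd3 (ENSMUSG00000064360, chrM:9459-9806). mt-Atp8 (ENSMUSG00000064356, chrM:7766-7969) had 27.6, and mt-Nd4l (ENSMUSG00000065947, chrM:9877-10173), whose last 7 bases overlap mt-Nd4, had 3 reads in all 18 libraries. The subunits of 1 complex stood far apart here, with mt-Co1 at 8288 and mt-Co2 and mt-Co3, of the same oxidase, at 341 and 280.1. Because reads from a copied stretch fit gene and copy alike, these levels are uncertain for the copied genes.

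**Figure D2:**
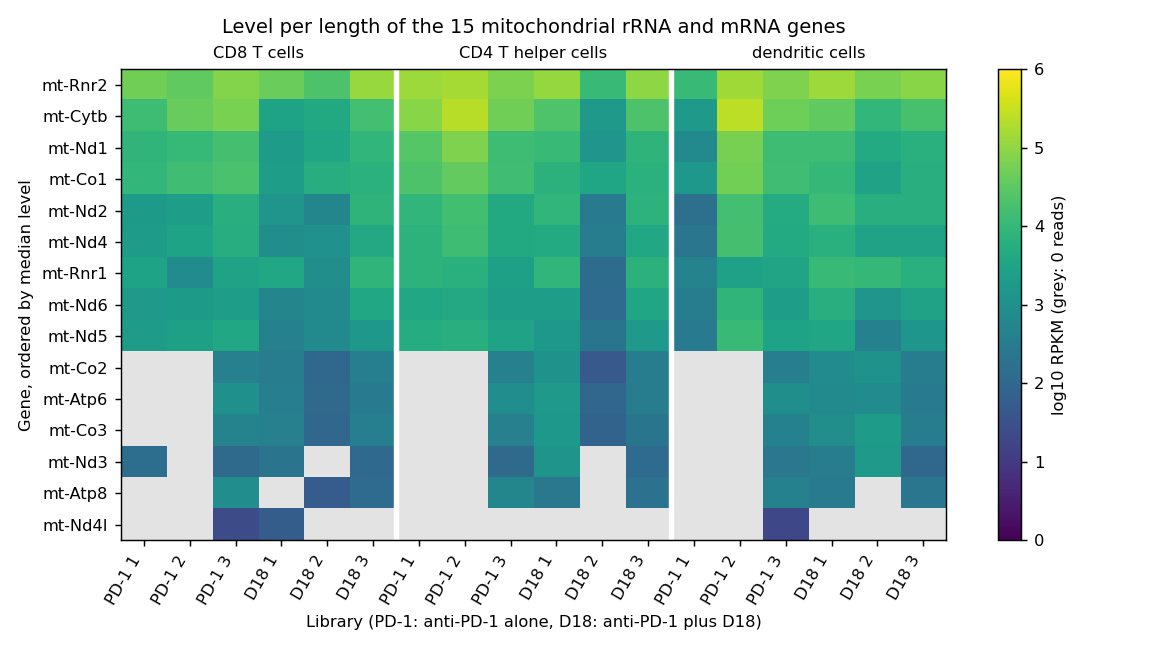
Level of the 15 rRNA and mRNA genes (rows, ordered by median) in the 18 libraries (columns), as log10 RPKM by colour, with grey for 0 reads. mt-Co2, mt-Atp6 and mt-Co3 are grey in anti-PD-1 replicates 1 and 2 of every sort and coloured in the other 12 libraries. mt-Atp8 is grey in the same replicates and coloured in 9 of those 12.

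tRNA genes were almost without reads. The 22 genes, 59 to 75 bases long, had 21 reads of the 641509 of all members, and 17 had none. mt-Tp, the tRNA for proline, had 12 reads in 7 libraries, mt-Te, for glutamate, had 4, and mt-Tm and mt-Tq, for methionine and glutamine, had 2 each. No library held more than 9 tRNA reads and 9 libraries held none. Smart-Seq2 primes reverse transcription on poly(A) tails. No tRNA was tested.

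The share of all reads that fell on members did not separate the treatments in any sort, but the share on mRNA genes was lower with D18 in every CD4 library. In CD8 cells members took 12.8%, 14.5% and 26.9% of reads in anti-PD-1 replicates 1 to 3 and 8.34%, 5.43% and 25.1% with D18. The groups overlapped, with a log2 difference of -0.71 ± 0.74 (SE, exact two-sided permutation p = 0.4, n = 3 per group). In CD8 cells the replicate numbers were taken to pair the libraries, and the share was lower with D18 in 3 of 3 pairs (exact sign-flip p = 0.25, the smallest that 3 pairs allow). In CD4 cells the shares were 40.1%, 67.7% and 21.8% under anti-PD-1 and 26.2%, 2.85% and 22.1% under D18 (log2 difference -1.72 ± 1.13, exact p = 0.3, n = 3). In dendritic cells they were 2.39%, 71.9% and 22.3% and 32.5%, 14.4% and 19.3% (log2 difference 0.41 ± 1.48, exact p = 0.9, n = 3). The widest spread lay within the anti-PD-1 dendritic cells, from 2.39% to 71.9%, between the 2 libraries without reads of mt-Atp6, mt-Co2 and mt-Co3. Exact 95% binomial intervals for those libraries ran from 2.27% to 2.52% and from 71.7% to 72.1%. An exact test of 3 against 3 libraries cannot give a p under 0.1.

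The shares were also split into those of mRNA and of rRNA genes. Mitochondrial mRNA took 18.6%, 42.8% and 11.2% of reads in CD4 anti-PD-1 libraries (24.2% ± 16.6, SD, n = 3) and 7.08%, 0.979% and 6.02% in those with D18 (4.69% ± 3.26). All 3 D18 libraries lay below all 3 anti-PD-1 libraries, with a log2 difference of -2.58 ± 1.08 and the smallest p that the exact permutation test allows, 0.1 (n = 3). In CD8 cells the shares were 4.73%, 8.97% and 14.2% against 1.39%, 2.08% and 5.69%, where D18 replicate 3 reached above anti-PD-1 replicate 1 (log2 difference -1.73 ± 0.76, exact p = 0.2, n = 3). Within same-numbered pairs the CD8 share was lower with D18 in 3 of 3 (SE of the paired difference 0.23, exact sign-flip p = 0.25). In dendritic cells they were 0.637%, 49.3% and 10.9% against 10.2%, 3.44% and 5.08% and overlapped throughout (exact p = 0.9, n = 3). In all 3 sorts every D18 library lay below anti-PD-1 replicate 3, by a mean log2 difference of -2.48, -1.68 and -0.96 in CD8, CD4 and dendritic cells, a comparison with 1 library that has no test. Mitochondrial rRNA took 8.09%, 5.54% and 12.7% against 6.96%, 3.35% and 19.4% in CD8 cells, 21.5%, 24.8% and 10.7% against 19.1%, 1.87% and 16.0% in CD4 cells and 1.76%, 22.6% and 11.3% against 22.2%, 11.0% and 14.3% in dendritic cells. Its groups overlapped in each sort (exact p = 0.9, 0.5 and 0.7). Over the 9 tests of shares the smallest Benjamini-Hochberg adjusted p was 0.900.

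**Figure D3:**
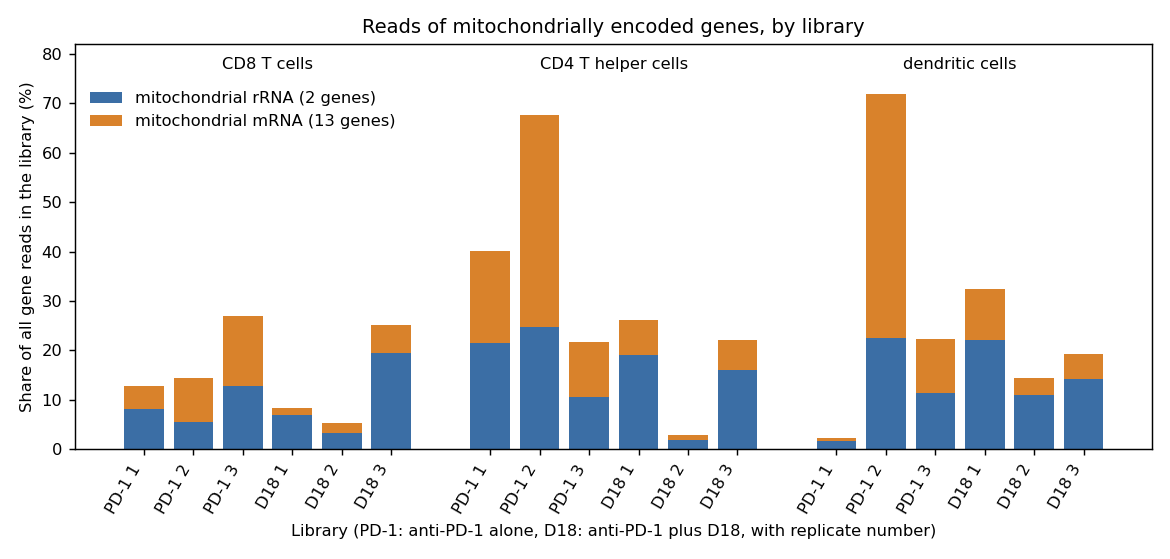
Share of all gene reads in each of the 18 libraries (y axis, %) that fell on the 2 rRNA genes (blue) and the 13 mRNA genes (orange) of the mitochondrion, stacked. The orange part reaches 42.8% and 49.3% in anti-PD-1 replicate 2 of CD4 and dendritic cells and stays between 0.979% and 10.2% in the 9 libraries with D18.

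Among the members' own reads, the ratio of rRNA to mRNA was higher in every D18 library than in anti-PD-1 replicate 3 of its sort, and in CD4 cells than in any anti-PD-1 library. The ratio is not scaled by depth or by nuclear reads, but its mRNA part includes genes with nuclear copies. It ran from 0.458 to 5.02 over the libraries, and from 0.458 to 5.33 without mt-Co2, mt-Co3 and mt-Atp6. In CD4 cells the ratio over all members was 1.15, 0.580 and 0.956 with anti-PD-1 (0.896 ± 0.290, SD, n = 3) and 2.70, 1.91 and 2.66 with D18 (2.43 ± 0.443). The groups did not overlap, and the log2 difference was 1.48 ± 0.34 (exact permutation p = 0.1, n = 3, adjusted p = 0.25 over 15 ratio tests). In CD8 cells it was 1.71, 0.617 and 0.897 against 5.02, 1.61 and 3.41, with D18 replicate 2 inside the anti-PD-1 range (log2 difference 1.62 ± 0.65, exact p = 0.2, n = 3). It was higher with D18 in 3 of 3 CD8 pairs (SE of the paired difference 0.16, exact sign-flip p = 0.25). In dendritic cells it was 2.76, 0.458 and 1.03 against 2.17, 3.19 and 2.81, with anti-PD-1 replicate 1 inside the D18 range (log2 difference 1.30 ± 0.77, exact p = 0.2, n = 3). Against anti-PD-1 replicate 3 alone the mean log2 difference was 1.75 in CD8 cells, 1.33 in CD4 cells and 1.38 in dendritic cells.

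Ratios between single members differed without overlap in some sorts. These ratios were chosen after the values had been seen. The complex I genes mt-Nd2 and mt-Nd1 had a ratio of 0.233, 0.295 and 0.383 in dendritic cell anti-PD-1 libraries and of 1.06, 1.29 and 1.01 with D18, without overlap (log2 difference 1.91 ± 0.24, exact p = 0.1, n = 3). In CD8 cells the ratio was 0.233, 0.236 and 0.383 against 0.714, 0.181 and 0.958 and in CD4 cells 0.372, 0.241 and 0.352 against 0.816, 0.244 and 1.01, where D18 replicate 2 of both sorts lay within or below the anti-PD-1 values. mt-Nd6 and mt-Nd5 lie on opposite strands, but their reads were not told apart by strand. The ratio of mt-Nd6 to mt-Nd5 was higher with D18 without overlap in CD8 cells, at 0.245, 0.205 and 0.158 against 0.356, 0.293 and 0.673, and in dendritic cells, at 0.324, 0.199 and 0.214 against 0.518, 0.889 and 0.574 (exact p = 0.1 each, n = 3). In CD4 cells it was 0.222, 0.191 and 0.210 against 0.411, 0.167 and 0.560 and overlapped. Few reads stand behind some of these values. In dendritic cells 0.324 is 11 reads of mt-Nd6 over 34 of mt-Nd5 and 0.889 is 8 over 9, and in CD4 cells 0.167 is 2 over 12. The dendritic cell value of 0.233 for mt-Nd2 to mt-Nd1 is 10 reads over 43.

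Between the rRNAs the difference lay the other way in dendritic cells. mt-Rnr2 to mt-Rnr1 was 37.7, 87.9 and 35.7 against 19.1, 10.6 and 22.7 in dendritic cells, lower with D18 without overlap (log2 difference -1.56 ± 0.54, exact p = 0.1, n = 3). It was 27.8, 74.0 and 45.9 against 18.7, 36.0 and 23.5 in CD8 cells and 28.3, 39.9 and 42.2 against 20.9, 145 and 22.5 in CD4 cells, where the value of 145 rests on 4 reads of mt-Rnr1. mt-Cytb to mt-Co1 was lower with D18 without overlap in CD4 cells, at 2.92, 4.49 and 2.61 against 2.25, 0.381 and 2.28 (exact p = 0.1, n = 3). No ratio had an adjusted p under 0.25 over the 15 tests. Against anti-PD-1 replicate 3 alone the mean log2 differences in CD8, CD4 and dendritic cells were 0.38, 0.74 and 1.54 for mt-Nd2 to mt-Nd1, 1.38, 0.69 and 1.59 for mt-Nd6 to mt-Nd5, -0.87, -0.05 and -1.10 for mt-Rnr2 to mt-Rnr1 and -1.25, -1.06 and -0.02 for mt-Cytb to mt-Co1.

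**Figure D4:**
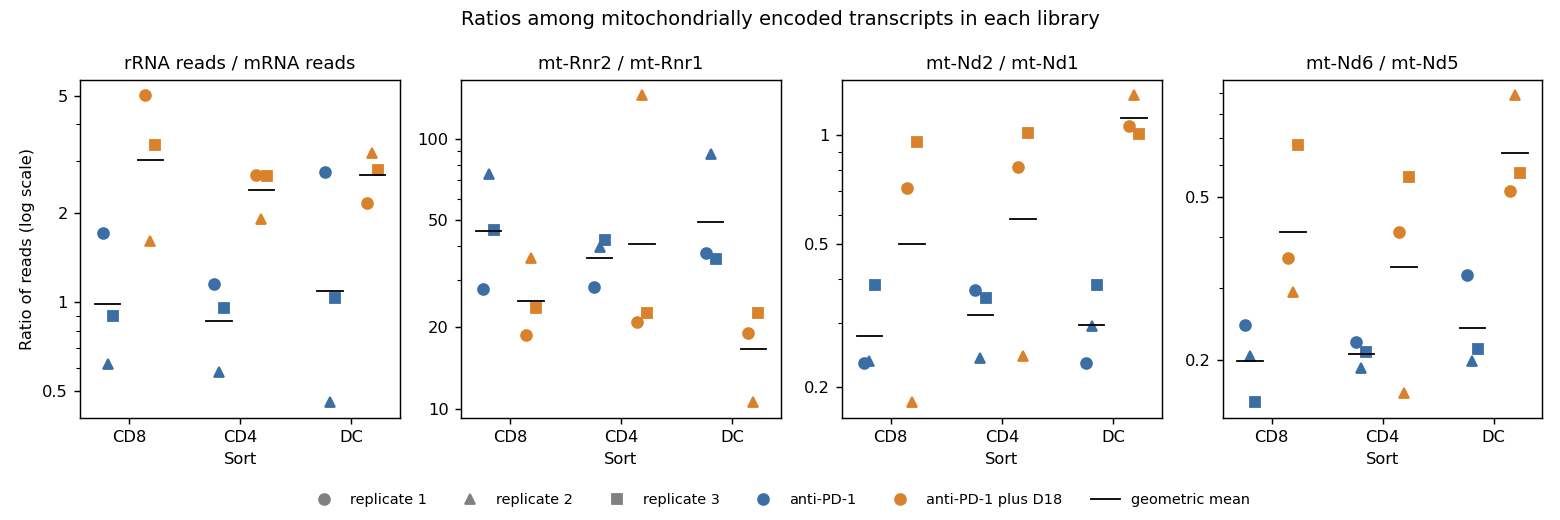
Ratio of reads between members in each library (y axes, log scale), by sort (x axes), in anti-PD-1 (blue) and anti-PD-1 plus D18 (orange) libraries, with replicate numbers as symbols and the geometric mean as a bar. Squares, the libraries numbered 3, lie close to each other across sorts, such as 0.383, 0.352 and 0.383 for mt-Nd2 to mt-Nd1 with anti-PD-1.

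The libraries numbered 3 of different sorts had similar values. With anti-PD-1 the ratio of rRNA to mRNA was 0.897, 0.956 and 1.03 in CD8, CD4 and dendritic cells, and with D18 it was 3.41, 2.66 and 2.81. The member share of reads was 26.9%, 21.8% and 22.3% under anti-PD-1 and 25.1%, 22.1% and 19.3% under D18. These 6 libraries also held T cell markers at 3433, 6529 and 3595 CPM of nuclear reads under anti-PD-1 and 4536, 5784 and 6196 under D18, dendritic cells included. The part of cell makeup in these ratios was not tested.

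The makeup of the member reads was compared for the 9 genes with reads in all 18 libraries, as the percentage of the reads of these 9 genes. mt-Nd5, a subunit of complex I, took a smaller part with D18 in all 3 sorts without overlap. Its share was 2.74%, 3.22% and 2.72% under anti-PD-1 against 0.977%, 2.47% and 1.14% under D18 in CD8 cells, 2.34%, 1.67% and 2.45% against 1.09%, 1.36% and 1.46% in CD4 cells, and 2.39%, 2.98% and 2.55% against 1.88%, 0.573% and 1.36% in dendritic cells (exact p = 0.1 each). In D18 replicate 2 of CD4 and dendritic cells these shares rest on 12 and 9 reads of mt-Nd5. mt-Cytb was lower without overlap in CD8 cells, at 12.2%, 31.4% and 26.8% against 4.25%, 9.51% and 7.46%, and in CD4 cells, at 24.3%, 37.7% and 26.6% against 9.80%, 6.90% and 10.8%. In dendritic cells its 8.08% in anti-PD-1 replicate 1 lay within the D18 range. mt-Nd1 was likewise lower in CD8 cells, at 6.39%, 6.97% and 6.22% against 2.43%, 6.13% and 3.38%, and in CD4 cells, at 6.09%, 9.98% and 6.04% against 4.31%, 4.64% and 3.43%.

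Other members differed without overlap in 1 sort each. mt-Rnr2 was higher with D18 in CD4 cells, at 51.7%, 35.8% and 48.1% against 70.7%, 65.6% and 69.8%, while mt-Nd4 was lower there, at 2.61%, 2.84% and 2.82% against 2.45%, 1.58% and 2.33%. In dendritic cells mt-Rnr1 was higher with D18, at 1.90%, 0.354% and 1.39% against 3.42%, 6.75% and 3.13%, as was mt-Nd2, at 0.702%, 2.33% and 2.30% against 4.34%, 4.20% and 3.30%, and mt-Co1 was lower, at 10.3%, 11.1% and 9.96% against 4.63%, 3.12% and 4.72%. mt-Nd6 overlapped in every sort. Shares of 1 total are tied to each other, and a lower part of 1 gene raises the others. None of the 27 tests reached an adjusted p under 0.225, since 3 against 3 libraries cannot give a raw p under 0.1.

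Gene by gene, no member passed the threshold in the fit without pairing. In an alternative fit that paired CD8 libraries of the same number, 4 mRNAs were called lower with D18. That pairing rests on correlations between same-numbered libraries in these same data, and the labels do not say what the numbers mark. In the pairs numbered 1 and 2 the treatment cannot be told apart from the split of the libraries described above. Reads were divided by the size factor of the library (normalised reads), and log2(normalised reads + 1) was tested with limma in every gene with a mean of at least 10. In each sort 12 members were tested, both rRNAs and 10 mRNAs. mt-Atp8, mt-Nd3, mt-Nd4l and the tRNAs were under that level, and mt-Co2, mt-Co3 and mt-Atp6 passed it although they had no read in anti-PD-1 replicates 1 and 2. 0 of 12 members passed an adjusted p of 0.05 in CD8, CD4 or dendritic cells, against 0% of the 1569, 966 and 886 genes tested. At an unadjusted p under 0.05 there were 4 members lower with D18 in CD8 cells, where 5.1% of genes were, and 0 higher, where 3.19% were. There were 4 lower in CD4 cells, where 6.63% of genes were, and 0 higher, where 3.73% were. In dendritic cells there were 2 higher, where 2.14% of genes were, and 0 lower, where 4.74% were. The median log2 change over the 12 members was -0.78 in CD8 cells, -2.23 in CD4 cells and 0.29 in dendritic cells, against -0.03, 0.03 and -0.65 over all genes tested. In CD8 cells 8 of 12 members had a change below 0, as had 51.7% of genes, and in CD4 cells 9 of 12, as had 48.4% of genes.

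In CD8 cells the 4 members were mt-Cytb, mt-Co1, mt-Nd5 and mt-Nd1, of the complexes of the respiratory chain. mt-Cytb had 1646, 4801 and 9893 normalised reads in anti-PD-1 replicates 1 to 3 and 366, 468 and 2451 with D18, each D18 library below the anti-PD-1 library of its number, although D18 replicate 3 lay above anti-PD-1 replicate 1. Its log2 change was -2.51 ± 0.89 (SE), with an adjusted p of 0.564 by limma without pairing and 0.00641 with the replicate block. mt-Co1 had 1517, 2308 and 4068 against 381, 758 and 1349 normalised reads, the 1 member of 12 whose groups did not overlap, as was so for 7.65% of genes in that direction. No member lay higher without overlap, where 6.88% of genes did. Its log2 change was -1.73 ± 0.60 (limma adjusted p = 0.564 without and 0.0120 with the block).

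mt-Nd5 had 369, 492 and 1003 against 84.1, 121 and 376 normalised reads in CD8 cells (log2 change -1.85 ± 0.64, limma adjusted p = 0.564 without and 0.0120 with the block). mt-Nd1 had 863, 1065 and 2295 against 209, 302 and 1112 (log2 change -1.63 ± 0.69, limma adjusted p = 0.599 without and 0.0245 with the block). Both were lower in the D18 library of every number. With the block, 0.701% of the 1569 genes passed in that direction and 0.574% in the other, where no member did. Against anti-PD-1 replicate 3 alone the log2 change was -3.72 for mt-Cytb, -2.48 for mt-Co1, -2.67 for mt-Nd5 and -2.47 for mt-Nd1 (limma adjusted p = 0.871 each, without the block). Left without the libraries numbered 1 the paired fit called 2 members, mt-Cytb and mt-Nd5, where 55 of 1621 genes were called. Without those numbered 2 or 3 it called 4, where 13 of 1539 and 17 of 1551 genes were called. The other members of CD8 cells had log2 changes of 0.62 ± 0.98 for mt-Rnr1, -0.23 ± 0.81 for mt-Rnr2, -0.77 ± 1.08 for mt-Nd2, -1.08 ± 0.78 for mt-Nd4 and -0.79 ± 0.79 for mt-Nd6. The macrophage marker list moved with these mRNAs in replicates 1 and 2, with 27673, 21598 and 42360.4 CPM of nuclear reads under anti-PD-1 against 1251, 2227 and 27833 under D18, from 6 to 10 of its genes, and its part in the result was not tested. In bulk RNA, fewer cells of a type and less RNA per cell cannot be told apart.

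In CD4 cells mt-Cytb, mt-Co1, mt-Nd1 and mt-Nd5 had groups that did not overlap, all lower with D18, where 9.21% of genes were. No member was higher without overlap, where 5.28% of genes were. mt-Cytb had 10344, 42520.2 and 4456 normalised reads under anti-PD-1 and 2127, 114 and 1881 under D18 (log2 change -4.02 ± 1.32, limma adjusted p = 0.453). mt-Co1 had 3548, 9477 and 1708 against 943, 300.2 and 826 (log2 change -2.64 ± 0.87, limma adjusted p = 0.453). mt-Nd1 and mt-Nd5 had log2 changes of -3.13 ± 1.16 and -3.02 ± 1.00. D18 replicate 2 was the lowest of the 6 libraries and anti-PD-1 replicate 2 the highest in all 4 genes. The values of the remaining members were -2.72 ± 1.21 for mt-Nd4, -2.22 ± 1.41 for mt-Nd2, -2.23 ± 1.23 for mt-Nd6, -1.83 ± 1.60 for mt-Rnr1 and -1.71 ± 1.30 for mt-Rnr2.

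The CD4 anti-PD-1 libraries that differ most from the D18 libraries are also those with the fewest T cell markers. The T cell list had 110.1, 364 and 6529 CPM of nuclear reads under anti-PD-1 and 7288, 5485 and 5784 under D18. Against anti-PD-1 replicate 3 alone the log2 change was -2.53 for mt-Cytb, -1.47 for mt-Co1, -1.52 for mt-Nd1 and -1.86 for mt-Nd5, with no member called and a lone control library taken to vary like the others.

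In dendritic cells 4 of the 12 members had a change below 0, against 69.1% of genes. Both genes under an unadjusted p of 0.05 were among those with nuclear copies and reached the level for a test only through the D18 group. No member's groups were free of overlap, where 19.9% of genes lay lower and 4.18% higher with D18 without overlap. mt-Co3 had 0, 0 and 27.9 normalised reads under anti-PD-1 and 73.2, 86.6 and 22.0 under D18 (log2 change 4.11 ± 1.31, limma adjusted p = 0.551). mt-Co2 had 0, 0 and 20.4 against 54.8, 43.3 and 19.6 (log2 change 3.74 ± 1.26, limma adjusted p = 0.551). Against anti-PD-1 replicate 3, the 1 anti-PD-1 library with reads of them, the values were 0.88 and 0.80. mt-Rnr1 had 28.6, 596 and 249 against 1142, 510.2 and 488 (log2 change 2.004 ± 1.17, and 1.40 against anti-PD-1 replicate 3 alone). mt-Cytb had 122, 68250.2 and 4398 against 4162, 568 and 1620.0 (log2 change -1.09 ± 2.14). For mt-Cytb the anti-PD-1 libraries numbered 1 and 2 lay below and above all 3 D18 libraries. Its change was 1.09 without anti-PD-1 replicate 2 and -3.47 without replicate 1. mt-Nd2 had a log2 change of 1.22 ± 1.88, mt-Rnr2 of 0.46 ± 1.73, mt-Nd1 of -0.65 ± 1.87, mt-Co1 of -1.42 ± 1.70, mt-Nd5 of -1.28 ± 1.74, mt-Nd4 of 0.02 ± 1.80 and mt-Nd6 of 0.12 ± 1.51. The shallowest library, D18 replicate 2 with 11170 reads, held 1610 reads of members.

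mt-Co2, mt-Co3 and mt-Atp6 were the exception to the direction of the other mRNAs in CD8 and CD4 cells. Their log2 changes without pairing were 2.48 ± 1.56, 2.59 ± 1.60 and 2.01 ± 1.77 in CD8 cells and 2.46 ± 1.79, 2.71 ± 1.69 and 2.57 ± 1.74 in CD4 cells. With a term for the 6 libraries that lack them the values were -1.05, -1.21 and -2.41 in CD8 cells and -0.53, -0.41 and -1.11 in CD4 cells, so the sign turned. With that term 12 of 12 members lay below 0 in CD8 cells, where 55.4% of genes did, 12 of 12 in CD4 cells, where 59% did, and 6 of 12 in dendritic cells, where 78% did. The medians were -2.10, -1.10 and -0.08. The term compares the D18 libraries with anti-PD-1 replicate 3 alone, and no member was called (0% of genes in each sort). The nuclear copies Gm28661, Gm28437, Gm10925 and Gm29216 likewise lay above 0 without the term, at 2.79, 2.54, 1.86 and 2.41 in CD8 cells, 2.01, 2.78, 1.84 and 1.88 in CD4 cells and 3.25, 3.61, 2.73 and 3.64 in dendritic cells. With it, their sign turned for all 4 in CD8 cells (-0.48, -1.20, -2.04 and -1.09), for Gm28661 and Gm10925 but not the other 2 in CD4 cells (-0.47, 0.06, -0.96 and 0.18), and for Gm10925 alone in dendritic cells (0.61, 0.64, -0.70 and 0.79).

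**Figure D5:**
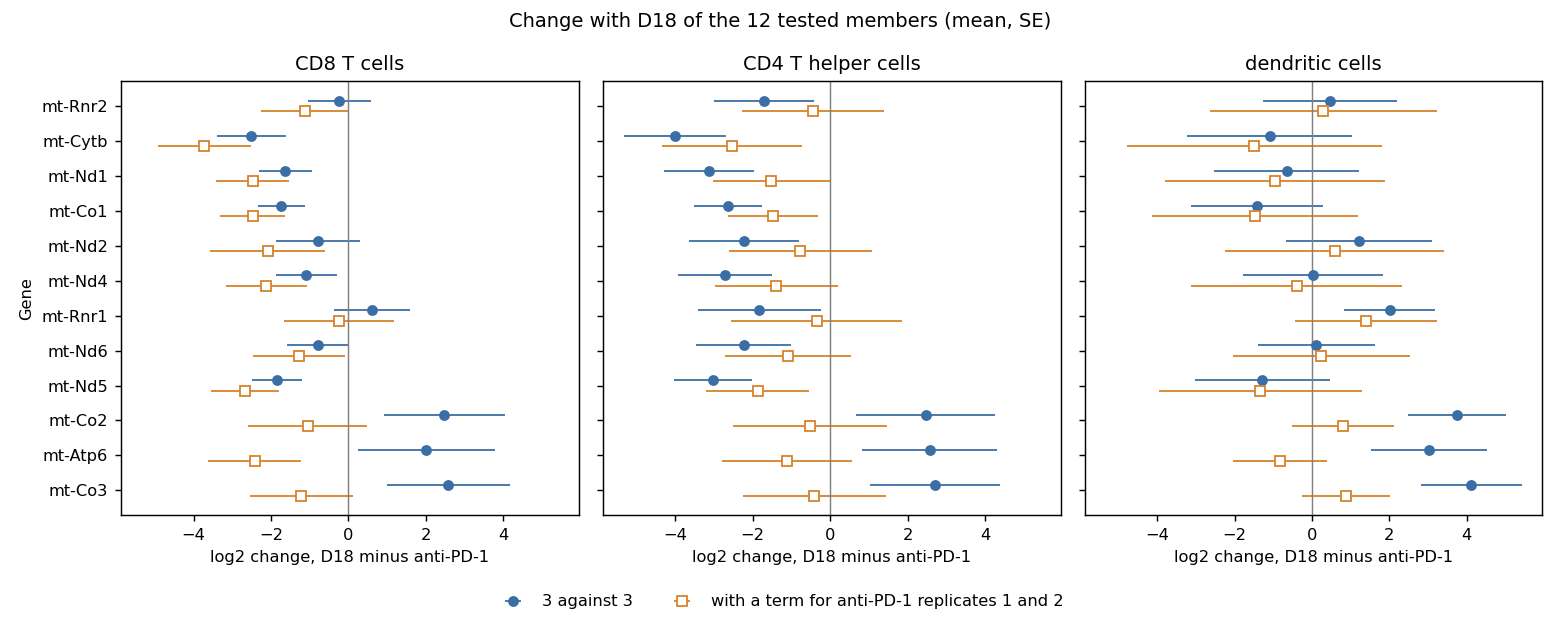
Log2 change with D18 (x axis, limma estimate with SE bars) of the 12 tested members (rows) in the 3 sorts, from 3 against 3 libraries (filled) and with a term for anti-PD-1 replicates 1 and 2 (open). mt-Co2, mt-Atp6 and mt-Co3 lie right of 0 without the term in every sort, and left of it with the term in CD8 and CD4 cells.

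The changes were not shown to differ between sorts. Of 12 members in each of 3 contrasts between sorts, 0 passed (0% of 916, 816 and 744 genes), and 0 had an unadjusted p under 0.05, where 0.655%, 0.49% and 2.82% of genes had. The contrast with the smallest unadjusted p was mt-Rnr1 in CD4 against dendritic cells, at -3.83 ± 2.09 (SE, limma adjusted p = 0.758).

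Nuclear genes that maintain and express the mitochondrial genome, such as its packaging factor Tfam and the elongation factor Tufm, were too low to test. Of the list's 45 symbols 43 were in the tables, and 0 reached a mean of 10 in any sort. All 43 together had 4 to 253 reads in a library. The list of nuclear genes that had been named as near copies of members also held Lars2, the mitochondrial leucyl-tRNA synthetase, and Gm15564. No member aligned with a transcript of either gene. Lars2 had log2 changes of 2.84 ± 0.86 in CD8 cells, 2.04 ± 0.94 in CD4 cells and 2.98 ± 0.78 in dendritic cells (limma adjusted p = 0.534, 0.478 and 0.551). In CD8 cells it passed with the replicate block (limma adjusted p = 0.000809). Against anti-PD-1 replicate 3 alone its values were 2.12, 0.85 and 2.39, and it was not called. Gm15564 was tested in CD8 cells only and had a log2 change of 0.73 ± 0.68 (limma adjusted p = 0.731). Gm28438 was tested in CD4 and dendritic cells, with -0.71 ± 1.30 and 2.48 ± 1.09, and Gm28439 was below the level for a test.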

How the data were processed

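RNA of 18 libraries was sequenced from sorted cells after Smart-Seq2, which keeps no strand and adds no molecular identifiers. The build mm10, STAR 2.4.0 as the aligner, HTSeq 0.6.1 as the counter and DESeq2 (version not given in the sources used here) are listed per the submitters' processing notes. The authors deposited 1 table per sort with log2 values of a variance-stabilising transform, whose kind the labels do not name. Undoing it, and taking each library's smallest value above 0 as 1 read, gave whole reads for 100% of values, within 0.001. Libraries held 11170 to 266392 reads, and a gene at 0 reads has an upper limit of 3 reads, for counting error only.

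Members were matched by symbol, which GENCODE M21 gave for 46488 of 46983 IDs. Reads divided by the size factor implied by each table were tested as log2(value + 1) with limma 3.58.1 (trend, robust, R 4.3.3) for genes whose mean was 10 or more, without a block, and p-values were adjusted over each whole table. A term for anti-PD-1 replicates 1 and 2 was 1 alternative; the others were CPM over all or nuclear reads, pseudocounts of 0.1 and 10, no filter, a mean of at least 100, the deposited log2 values, limma-voom, the replicate block and libraries left out. Shares and ratios were compared on the log2 scale with exact two-sided permutation tests, and in CD8 pairs with exact sign-flip tests (for mRNA shares added after the data had been examined). Changes between sorts were limma contrasts over all 18 libraries. Sequences were compared with BLAST 2.17.0 (e-value at most 1e-05) and by shared 50-base stretches among GENCODE M21 transcripts, without a genome sequence. The limma script was tested on simulated data. Other software was matplotlib 3.10.9, scipy 1.17.1, pandas 2.3.3, numpy 2.4.6 and Python 3.11.15.

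The rRNA and mRNA genes and the nuclear genes listed as near copies were named whatever their result, and tRNAs by their reads. The members and lists were chosen with earlier results of these data known. Replicate numbers come from the labels, which do not say what they mark. In CD8 cells, deviations from the group means correlated at 0.36, 0.51 and 0.56 between libraries of the same number (1569 genes), so the numbers were taken to pair them.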

Additional observations from a re-analysis of the deposited data

How the results depend on the processing

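No member was called with 1 library left out in any sort (0 to 0 in each), nor under CPM, other pseudocounts, a mean of at least 100, the deposited log2 values or limma-voom. Without a filter 3 members were called in CD8 cells (mt-Nd1, mt-Co1, mt-Nd5), where 22 of 14497 genes were. In CD4 cells 1 was called (mt-Co1), where 29 of 14441 genes were. The replicate block called 4 members in CD8 cells. Fits with the block and 1 pair left out were added after the data had been examined. Without the libraries numbered 1 they called 2 members, where 55 of 1621 genes were called. They called 4 without those numbered 2, where 13 of 1539 genes were, and 4 without those numbered 3, where 17 of 1551 were. The block called 20 of 1569 genes in CD8 cells, against 0 without it, and changed no call of another member. In CD4 and dendritic cells same-numbered libraries correlated at -0.14, 0.15 and -0.20 and at 0.03, -0.09 and 0.14, so the block there rests on numbers alone.

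Scaling by CPM over all reads moved the median of all genes from 0.03 to 0.69 in CD4 cells and from -0.65 to -0.18 in dendritic cells (log2). The log2 change of the member share in dendritic cells turned from 0.41 to -0.31 over mRNA genes alone, to -10.1 percentage points on the linear scale and to -0.94 without anti-PD-1 replicate 1. With 1 library left out it ran from -0.94 to 1.51, against -1.35 to -0.24 in CD8 and -2.30 to -0.70 in CD4 cells. The log2 change of the rRNA to mRNA ratio ran from 1.25 to 2.07 in CD8, 1.19 to 1.69 in CD4 and 0.67 to 1.97 in dendritic cells.

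Of 645 alternatives of single members 36 turned the sign. With the term for anti-PD-1 replicates 1 and 2 these were, in CD8 cells, mt-Rnr1 (-0.24), mt-Co2 (-1.05), mt-Atp6 (-2.41) and mt-Co3 (-1.21), in CD4 cells mt-Co2 (-0.53), mt-Atp6 (-1.11) and mt-Co3 (-0.41), also without those libraries, and in dendritic cells mt-Atp6 (-0.82) and mt-Nd4 (-0.39). limma-voom turned mt-Rnr2 in CD8 cells (0.13), as did the block without pair 2 (0.13), and mt-Nd1 in dendritic cells (0.15). In dendritic cells mt-Nd4 and mt-Nd6 turned with a pseudocount of 10 (-0.12 and -0.044) and with the deposited values (-0.10 and -0.014). With 1 library left out, signs turned for mt-Rnr1 (-0.23 to 1.59), mt-Rnr2 (-1.04 to 0.48) and mt-Nd2 (-1.95 to 0.17) in CD8 cells and mt-Rnr1 in CD4 cells (-2.97 to 0.24). In dendritic cells they turned for mt-Rnr2 (-0.98 to 1.82), mt-Nd1 (-2.77 to 1.31), mt-Nd2 (-1.04 to 3.16), mt-Co1 (-3.16 to 0.29), mt-Nd4 (-2.09 to 1.92), mt-Nd5 (-3.06 to 0.48), mt-Nd6 (-1.43 to 1.72) and mt-Cytb (-3.47 to 1.09), when anti-PD-1 replicate 1 or 2 or D18 replicate 1 was left out. The cause was not tested. Depth limits what genes at 0 reads can show.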
